A study of Caenorhabditis elegans with 4 samples.

Results

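TBP-1 peaks on the left and right arm of chromosome V of Caenorhabditis elegans were described from chromatin immunoprecipitation and sequencing (ChIP-seq) of embryos. A peak was placed on the left arm when its centre lay below position 5230000 and on the right arm when it lay above 15690000, on the WormBase WS220 build, which takes about 25% of the chromosome at each end. By this positional rule 294 of the 4203 nuclear peaks of the whole-series list were members, 135 on the left arm and 159 on the right arm, which is 42.8% of the 687 peaks of V. The rule uses position alone, and it was drawn up with earlier results of these data in view. The series held 4 samples, 2 TBP-1 immunoprecipitations and 2 input DNA libraries, from N2 worms of wild-type genotype, mixed embryonic stages and mixed sex (male and hermaphrodite), grown at 20 °C and fixed with 2% formaldehyde for 30 minutes. The antibody was an affinity-purified rabbit polyclonal serum against TBP-1. All libraries came from whole embryos, so every value below is an average over many cell types. Peak lists of the 2 ChIP replicates and of the whole series were analysed. Whether the 2 replicates came from separate cultures is not recorded, so SDs and permutation p values over them may measure technical spread alone. The exact binomial and Fisher's exact tests below count peaks and measure no spread between replicates.

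The TATA-binding protein, TBP-1 in the worm, takes part in starting transcription by RNA polymerases I, II and III. It sits at promoters of protein-coding genes, and also at small non-coding RNA genes such as those of tRNA, 5S ribosomal RNA and spliced-leader RNA. Worm autosomes have a centre rich in broadly expressed genes and repeat-rich arms with more recently duplicated gene families. In the RefSeq gene table of the WBcel235 assembly, V carried 4995 of 19971 nuclear protein-coding genes. It carried 67.9% of the genes with chemoreceptor symbols of the sr and str families (888 of 1308), which encode membrane receptors used by sensory neurons. It also carried 167 of 269 genes with nhr symbols, which encode nuclear hormone receptors. These counts describe the chromosome. That assembly is not the build of the peak lists, so its positions were not used and no gene was assigned to any peak.

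Peaks were sparse on both arms, and sparsest on the left arm. In the series list the left arm held 25.8 peaks per Mb over 5.23 Mb and the right arm 30.4 peaks per Mb, against 37.6 in the centre of V and 41.3 in the arms of chromosomes I to IV, drawn the same way as 25% of the length at each end. In replicate 1 the left arm had 9.94 peaks per Mb (52 peaks), the right arm 14.7 (77 peaks), the centre 16.1 and the arms of I to IV 16.8. In replicate 2 the same regions had 13.8 (72 peaks), 19.3 (101 peaks), 22.7 and 25.7 peaks per Mb. The order of the 4 regions was thus the same in all 3 lists. Over the 2 replicates the mean density was 11.9 ± 2.70 peaks per Mb on the left arm, 17.0 ± 3.24 on the right arm, 19.4 ± 4.66 in the centre and 21.3 ± 6.29 in the arms of I to IV (SD, n = 2 each). The 2 lists differed in length, with 1684 nuclear peaks in replicate 1 and 2660 in replicate 2, so the regions were compared within each list. Paired within replicates, the log2 ratio of the density of the left arm to the centre was -0.71 ± 0.019, to the arms of I to IV -0.83 ± 0.10 and to the right arm -0.53 ± 0.055 (SD, n = 2 each). That of the right arm was -0.18 ± 0.074 to the centre and -0.30 ± 0.16 to the arms of I to IV. All 5 ratios were below 0 in both replicates, but 2 pairs cannot give a p below 0.5 in a two-sided exact permutation test.

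**Figure D1:**
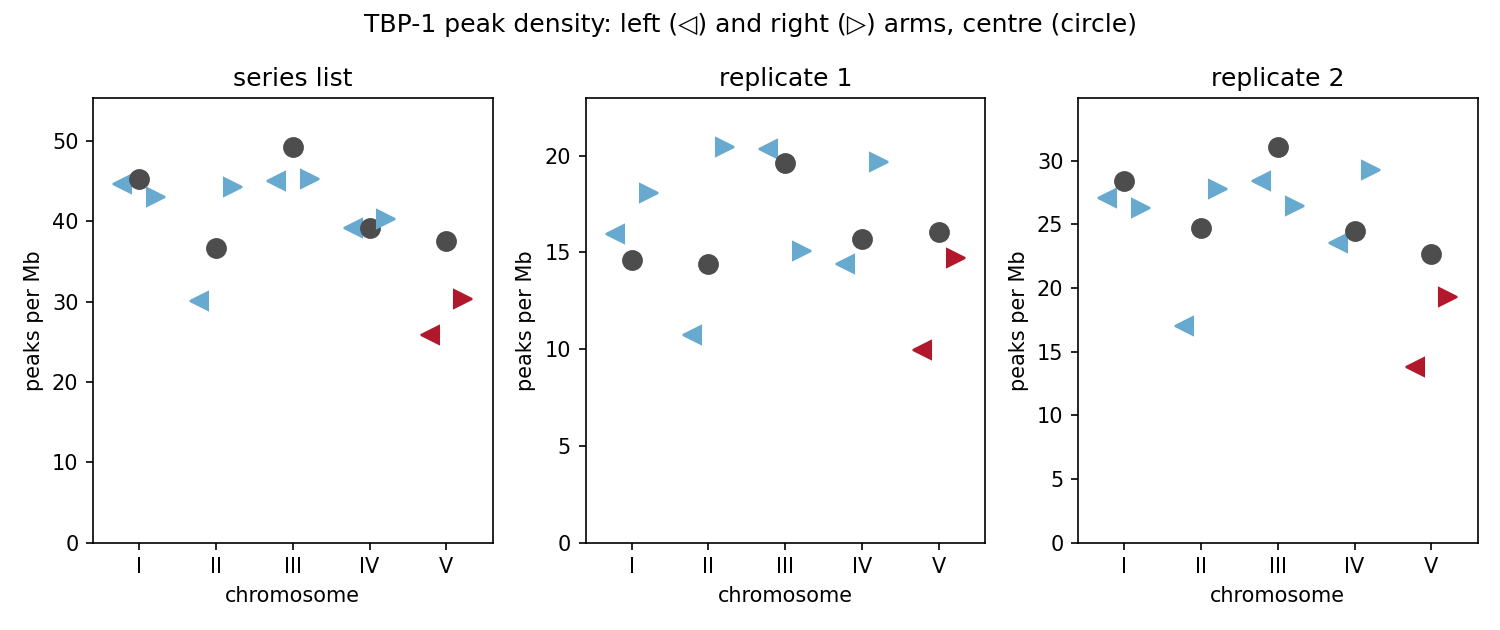
Number of TBP-1 peaks per Mb (vertical axis, from 0) in the left arm (left-pointing triangle), centre (circle) and right arm (right-pointing triangle) of each autosome, in the series list and both replicates. The arms of V are red, and its left arm had the lowest value of all 10 autosome arms in every panel (25.8, 9.94 and 13.8).

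The left arm fell below the centre of V in every list. Relative to the centre its density was 0.69 for the series list (95% exact interval 0.56 to 0.84), 0.62 for replicate 1 (0.44 to 0.85) and 0.61 for replicate 2 (0.46 to 0.79), with adjusted p = 0.00041, 0.0044 and 0.00041 in two-sided exact binomial tests (Benjamini-Hochberg over 15 tests). Against the arms of I to IV the ratios were 0.63, 0.59 and 0.54 (exact binomial test, adjusted p = 3.4e-07, 0.00041 and 3.4e-07). Among the 10 autosome arms the left arm of V ranked lowest in all 3 lists. The nearest arm was the left arm of II, with 30.1 peaks per Mb in the series list, 10.7 in replicate 1 and 17.0 in replicate 2. The other 7 arms of I to IV lay between 39.1 and 45.3 peaks per Mb in the series list.

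The right arm was less clearly separated. Relative to the centre its density was 0.81 for the series list (0.67 to 0.97), 0.92 for replicate 1 (0.69 to 1.21) and 0.85 for replicate 2 (0.67 to 1.08), with adjusted p = 0.040, 0.54 and 0.21 by exact binomial testing. The series-list call was lost with merged neighbouring peaks (0.84), with the stronger 50% of peaks (0.81) with wider arms of 33.3% of the length (0.96) and among peaks found in both replicates (0.85). Against the arms of I to IV the right arm had ratios of 0.74 in the series list (0.62 to 0.87), 0.88 in replicate 1 (0.68 to 1.11) and 0.75 in replicate 2 (0.60 to 0.92), with adjusted p = 0.00043, 0.32 and 0.011 by exact binomial testing. The series-list call was lost among peaks found in both replicates (0.76), and the replicate 2 call with the stronger 50% of peaks (0.80) and with wider arms (0.84). Counted from the lowest of the 10 arms, the right arm ranked 3 in the series list and in replicate 2, and 4 in replicate 1.

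The arms also differed from each other in the replicate lists. The ratio of left to right was 0.68 for replicate 1 (0.47 to 0.97) and 0.71 for replicate 2 (0.52 to 0.97), each with adjusted p = 0.047 by exact binomial testing. For the series list it was 0.85 (0.67 to 1.08, exact binomial test, adjusted p = 0.21). Both replicate calls were lost when peaks closer than 500 bp were merged (ratios of 0.73 and 0.75), and that of replicate 1 also with the stronger 50% of peaks (0.57). The series-list ratio passed the threshold with the stronger 50% of peaks (0.64), with wider arms (0.80) and among peaks found in both replicates (0.54). The exact tests treat peaks as independent units, which neighbouring peaks are not, so their p values may be too small.

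In the series list, peak counts by midpoint and by window varied less along the left arm than along the right arm. Gaps of at least 100 kb nevertheless took up more of the left arm, as given below. Cut at its midpoint, the left arm had 67 series-list peaks on the side of the chromosome end and 68 on the inner side. The right arm had 90 and 69, while replicate 1 had 37 and 40 there and replicate 2 had 58 and 43. This difference was not tested. Windows of 500 kb held 9 to 15 series-list peaks on the left arm (10 windows, median 13), 8 to 25 on the right arm (9 windows, median 15) and 9 to 31 in the centre (20 windows, median 18.5). No left-arm window reached the median of the centre. The fullest right-arm window, from 18500001 to 19000000, held 25 series-list, 14 replicate 1 and 15 replicate 2 peaks. The emptiest, from 18000001 to 18500000, lay next to it and held 8, 3 and 6.

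The limits of the arms fell into stretches with few peaks. The last left-arm peak, V:5076282-5076803 with a score of 5.3, had its centre 153 kb from the limit, and the first peak beyond it, V:5283181-5285889 with a score of 55.71, lay 54.5 kb on the other side. At the right limit the last centre peak, V:15668102-15668382 with a score of 40.45, lay 21.8 kb away, and the first right-arm peak, V:15766281-15766447 with a score of 7.84, lay 76.4 kb away.

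The sparse left arm was broken up by long stretches free of peaks. Gaps of at least 100 kb between neighbouring series-list peaks took up 44.2% of the left arm (16 gaps), 24.8% of the right arm (9 gaps), 21.6% of the centre (16 gaps) and 17.2% of the arms of I to IV (40 gaps). In replicate 1 they took up 78.4%, 69.3%, 68.2% and 60.4%, and in replicate 2 71.8%, 50.1%, 43.3% and 33.2%, in the same order of regions. The left arm was highest and the arms of I to IV lowest in each list. With a limit of 50 kb the arms were alike (70.9% on the left and 72.7% on the right), so the difference between them lay in the longest gaps. Gaps were not tested, since they follow in part from the density.

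**Figure D2:**
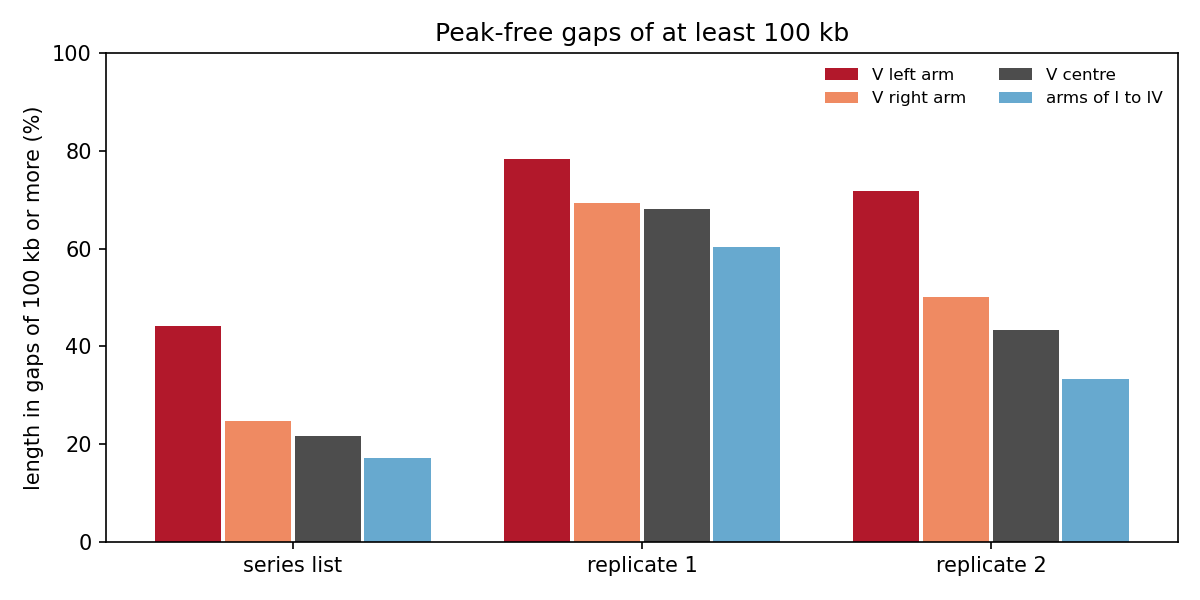
Share of each region's length (vertical axis, percent, from 0) that lies in gaps of at least 100 kb between neighbouring peaks, in the series list and both replicates. The left arm of V has the tallest bar in each list, at 44.2%, 78.4% and 71.8%.

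Of the 20 longest gaps of the whole nuclear series list, 9 lay on V, 5 of them on the left arm, 1 on the right arm and 3 in the centre. The left-arm gaps were V:2328941-2563688 (235 kb), V:1872056-2090404 (218 kb), V:3704143-3915137 (211 kb), V:5076804-5283180 (206 kb, which runs across the limit of the arm) and V:316960-506763 (190 kb). The first of these was the second longest of the nuclear genome. The longest right-arm gaps were V:17132156-17308524 (176 kb), V:16709463-16877129 (168 kb), V:15874435-16040062 (166 kb), V:20539343-20693914 (155 kb) and V:16983188-17115356 (132 kb). None of these 10 gaps held a whole peak of either replicate, so they were empty in all 3 lists apart from flanking peaks that reach into them. The first and the last of the right-arm gaps flank the wide region described below.

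Left-arm peaks were also weaker in the series list. The authors' score has no stated scale, so it was used as a rank among the 4203 nuclear peaks of the series list. The median left-arm peak stood at score percentile 41.4 (quartiles 19.4 and 63.7), against 52.6 on the right arm (27.3 and 76.5), 52.0 in the centre and 51.6 in the arms of I to IV. Of the left-arm peaks, 20 of 135 (14.8%, 95% Wilson interval 9.80 to 21.8) belonged to the strongest 25% of the list, against 42 of 159 on the right arm (26.4%, 20.2 to 33.8), 106 of 393 in the centre (27.0%) and 319 of 1272 in the arms of I to IV (25.1%). The left-arm share was below that of the centre, of the other autosome arms and of the right arm (two-sided Fisher's exact test, adjusted p = 0.020, 0.020 and 0.035 over 5 tests). The right arm did not differ from the centre or the other arms past the threshold (adjusted p = 0.92 and 0.87 in the same exact test). Fisher's exact test, here and below, takes each peak as a separate unit. Its p values can come out too low where 1 wide region is split into several peaks. On the left arm 5 peaks with scores of 5.73 to 9.93 lay in 1 replicate 1 peak, V:3434527-3441172. On the right arm 4 with scores of 2.52 to 4.11 lay in V:16449775-16451755. The share of strong peaks was not tested with such neighbours merged. At the very top the difference was not resolved: 8 left-arm peaks (5.93%) were among the strongest 10%, against 10.4% in the centre (Fisher's exact test, adjusted p = 0.44), and against the right arm the call was also lost with the strongest 50% (adjusted p = 0.058). In a further check the strongest 25% was drawn anew among the peaks found in both replicates. The left-arm share was then higher, by 6.29 percentage points over the centre, 3.12 over the other arms and 11.4 over the right arm. It passed no test (Fisher's exact test, adjusted p = 0.58 to 0.66). By the threshold of the whole list, 20 of these 32 left-arm peaks were among the strongest 25%. It was 100 of 139 in the centre, 42 of 59 on the right arm and 311 of 457 in the arms of I to IV. The left-arm share was the lowest of these, which was not tested. The replicate lists gave median percentiles for the left arm of 39.1 and 46.1, against 45.9 and 55.5 for the right arm. They were 50.8 and 54.6 for the centre and 47.3 and 51.0 for the arms of I to IV. In replicate 1 the strongest 25% held 15.4% of left-arm, 18.2% of right-arm and 25.6% of centre peaks, and 21.0% in the arms of I to IV. In replicate 2 these shares were closer together, at 22.2%, 22.8%, 28.7% and 23.6%. The replicate shares were not tested. The left arm had the lowest median of the 10 autosome arms in the series list and ranked 3 from the lowest in each replicate.

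The widths of the peaks were alike. The median width was 271 bp on the left arm, 282 bp on the right arm, 281 bp in the centre and 263 bp in the arms of I to IV. Over the list median lay 49.6%, 53.5%, 53.9% and 47.3% of the peaks, and none of the 5 comparisons passed Fisher's exact test (adjusted p = 0.76 to 0.93). The difference between the left arm and the centre was -4.31 percentage points and that between the right arm and the centre -0.48. Score and width ranked together less closely on the left arm, with Spearman's rho of 0.49 across 135 peaks, than on the right arm (0.70 across 159) or in the centre (0.71 across 393). These are descriptions across peaks of 1 list.

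**Figure D3:**
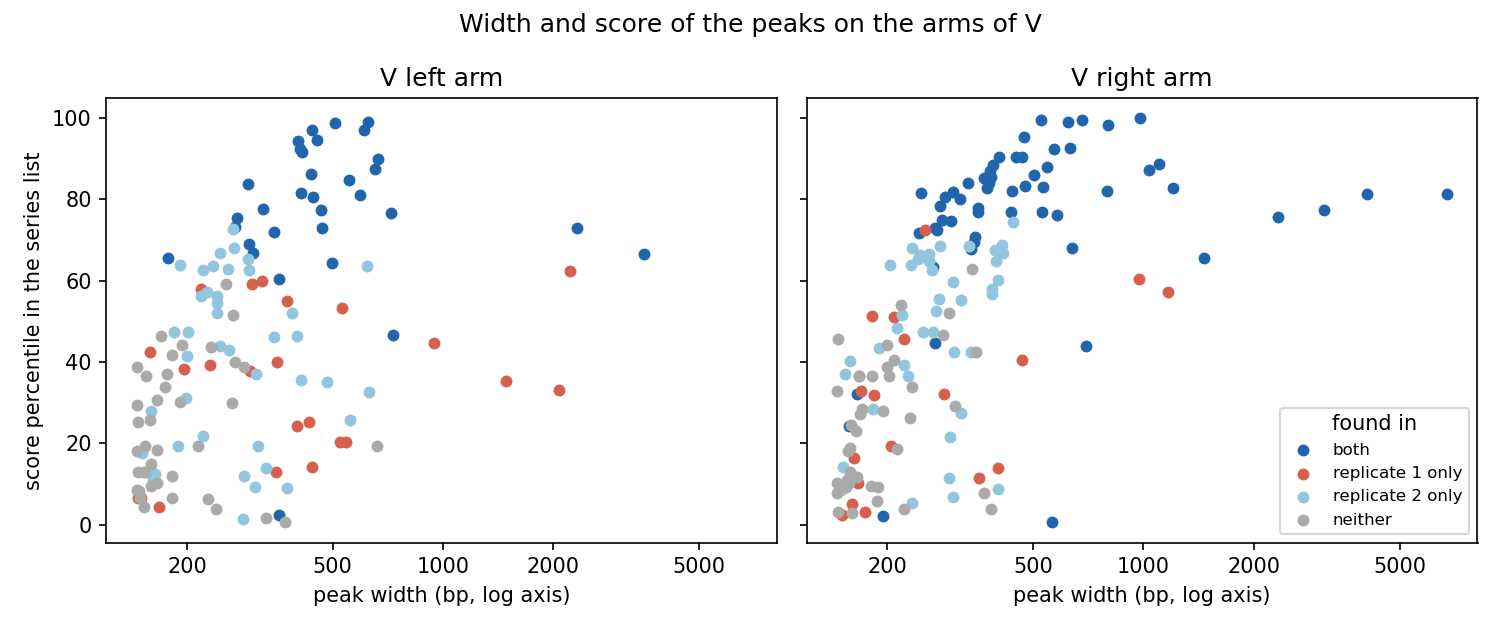
Width in bp (horizontal log axis) and score percentile in the series list (vertical axis) of each of the 135 left-arm and 159 right-arm peaks, coloured by the replicate lists in which they were found. Wide peaks of the left arm include red points at or below percentile 62.3, which were found in replicate 1 only, whereas the 5 widest right-arm peaks were found in both replicates.

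The strongest series-list peaks of both arms were found in both replicate lists. All 20 left-arm and all 42 right-arm peaks of the strongest 25% overlapped a peak of each replicate by at least 1 bp, compared with 100 of 106 in the centre and 311 of 319 in the arms of I to IV. The series list was treated as pooled over the 2 ChIP samples, so its overlap, here and below, is no independent evidence for a peak. The strongest member was V:19642850-19643825 on the right arm, 976 bp wide, which shared the highest score of the list, 246.25, and had a score of 3100 in each replicate. Next on the right arm came V:16591860-16592540 with a series score of 244.04 (2346.47 in replicate 1 and 2921.45 in replicate 2) and V:19722757-19723281 with 242.88 (1688.45 and 3062.64). V:19125692-19126315 followed with 236.99 (2302.8 and 3100), then V:15873637-15874434 with 228.18 (3100 and 3100). The other 5 of the 10 strongest right-arm peaks found in both replicates had series scores of 158.84 to 203.2. The last of these in position, V:20693915-20694385, followed the gap of 155 kb named above and was the last V peak of replicate 1 (score 1009.55).

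On the left arm the strongest peak was V:53121-53745, 625 bp wide and close to the chromosome end, with a series score of 237.25 and replicate scores of 2387.07 and 2975.9. It ranked 42 in the series list. V:858845-859351 had 233.37 (1726.35 in replicate 1 and 2357.23 in replicate 2). V:2673697-2674305 had 218.84 (1083.96 and 2644.17), the same series score as V:4028866-4029305 (1527.68 and 1849.17). No left-arm peak reached a score of 3100 in a replicate. A run of 3 strong peaks followed one another in the series list, at V:1804781-1805444 (153.18), V:1833097-1833502 (178.15) and V:1838474-1838884 (171.1).

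The outermost series-list peaks of V stood above the median score of that list, and the left-end replicate peaks lay near the middle of theirs. On the left it was V:1-345 in the series list (score 31.28, percentile 71.9), which starts at the first base, with replicate peaks from 1 to 397 (271.12, percentile 51.1) and from 1 to 564 (233.25, percentile 56.2). On the right it was V:20923841-20924180 (score 19.38, percentile 62.9), which overlapped no replicate peak. The replicate lists stopped before it, at 20694476 in replicate 1 and 20846098 in replicate 2.

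The widest peak of each replicate list lay on the right arm, between 2 of its long gaps. In replicate 1 a single peak ran over V:17119878-17132354 (12477 bp, score 3100) and in replicate 2 over V:17119662-17132760 (13099 bp, score 3100), each the widest nuclear peak of its list. The series list showed the same stretch as 2 peaks, V:17119904-17126641 (6738 bp, score 60.29) and V:17128091-17132155 (4065 bp, score 62.13), 1449 bp apart. These ranked 5 and 15 by width among all nuclear series-list peaks, and together covered 86.6% of the replicate 1 peak and 82.5% of the replicate 2 peak. The widest series-list peak of V was in the centre instead, at 8072 bp.

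The wide region ranked high in the replicates and lower in the series list. Its replicate scores put it at percentile 97.5 in replicate 1 and 96.1 in replicate 2, where 60 and 175 peaks shared the score 3100. The score 3100 was not the highest, since scores reached 3230.05 in replicate 1 and 3211.42 in replicate 2. Why so many peaks share it is not known. Peaks that share it cannot be ordered, and these percentiles are those of the whole tied set. The 2 series-list peaks stood at percentiles 81.2 and 81.3. Just to the left, 2 ordinary peaks were present in all 3 lists. V:17117761-17118961 had a series score of 72.84 and replicate scores of 2337.26 and 2716.73, and V:17115357-17116149 had 66.24, 1393.83 and 1524.72. Together these 4 series-list peaks stood alone between 2 gaps of 132 and 176 kb. The right arm of V is known to hold the tandem array of 5S rRNA and spliced-leader SL1 RNA genes, which are read by RNA polymerase III and RNA polymerase II. The RefSeq table listed 12 sls-1 (SL1 RNA) genes, all on V, and each had at least 1 of the 15 rRNA genes of V among its 2 nearest listed genes on either side. Whether the array lies under the wide region was not examined, for want of an annotation of the build of the lists.

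**Figure D4:**
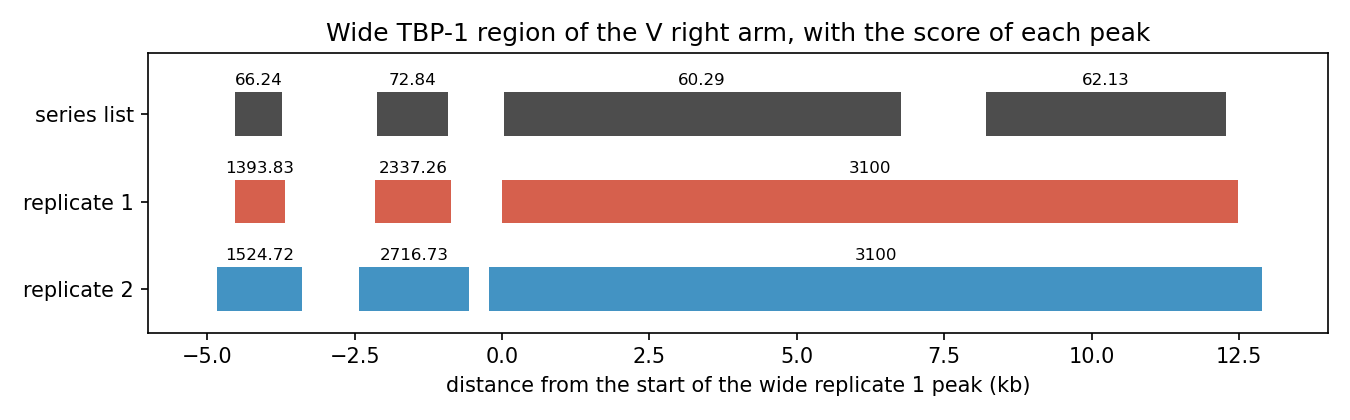
Peaks of the series list and both replicates around the wide region of the right arm, as bars over the distance in kb from the start of the wide replicate 1 peak, with each peak's score above its bar. The single wide peak of each replicate, 12477 and 13099 bp long, appears as 2 peaks of 6738 and 4065 bp in the series list.

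Other wide members behaved in different ways on the arms. On the right arm V:17308525-17311625 (3101 bp, series score 45.76) had replicate scores of 2484.99 and 1816.21, V:16707127-16709462 (2336 bp, 40.76) had 1577.09 and 1951.85, and V:18400317-18401780 (1464 bp, 22.04) had 814.5 and 194.74. On the left arm V:4333146-4336674 was widest (3529 bp, 22.92), with 2426.11 in replicate 1 and 796.18 in replicate 2. V:264962-267288 (2327 bp, 33.86) had 2141.6 and 892.86. The other 3 of the 5 widest left-arm peaks had no replicate 2 peak. They were V:5073391-5075609 (2219 bp), V:3436390-3438460 (2071 bp) and V:3434675-3436160 (1486 bp), with series scores of 18.81, 7.29 and 7.59.

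Fewer left-arm peaks were found in both replicates. Of all nuclear series-list peaks 34.5% overlapped a peak of both replicates. On the left arm it was 32 of 135 (23.7%, 17.3 to 31.5), on the right arm 59 of 159 (37.1%, 30.0 to 44.8), in the centre 139 of 393 (35.4%) and in the arms of I to IV 457 of 1272 (35.9%), with single autosome arms of I to IV between 26.3% and 42.6%. The left arm was below the arms of I to IV (Fisher's exact test, adjusted p = 0.043 over 10 tests), and missed the threshold against the centre and against the right arm (adjusted p = 0.054 for both). The call was lost when an overlap of 50% of the shorter peak was asked for (Fisher's exact test, adjusted p = 0.054), with centres within 100 bp (0.70) and within the stronger 50% of the list (0.92). It was also lost when either replicate was left out, which measures overlap with the remaining replicate alone. Without replicate 2 the difference turned to 1.04 percentage points, and without replicate 1 it was -10.4 points (Fisher's exact test, adjusted p = 0.058).

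Finding a member in 1 replicate or both was about as frequent as over all nuclear peaks, of which 71.0% were so found. The share was 71.1% on the left arm (96 of 135, 63.0 to 78.1), 74.8% on the right arm (119 of 159, 67.6 to 80.9), 71.5% in the centre and 68.2% in the arms of I to IV. None of the 5 comparisons passed the test (Fisher's exact test, adjusted p = 0.25 to 1). Replicate 2 alone held 41 left-arm (30.4%) and 42 right-arm peaks (26.4%), and neither replicate held 39 (28.9%) and 40 (25.2%). Over all nuclear series-list peaks these shares were 31.3% for replicate 2 alone and 29.0% for neither. Members found in neither replicate were narrow and weak, with a median width of 174 bp and a median score of 5.59, against 438 bp and 60.29 for the 91 members found in both. All nuclear series-list peaks showed the same pattern, with 181 bp and 5.59 for neither against 436.5 bp and 73.22 for both.

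Peaks seen in replicate 1 alone were frequent on both arms of V. They made up 5.21% of all nuclear series-list peaks. On the left arm they were 23 of 135 (17.0%, 11.6 to 24.3), on the right arm 18 of 159 (11.3%, 7.28 to 17.2), in the centre 24 of 393 (6.11%) and in the arms of I to IV 48 of 1272 (3.77%). No other autosome arm went above 5.56%. These comparisons were chosen after seeing the data. In Fisher's exact test the left arm was above the centre and above the arms of I to IV (adjusted p = 0.0011 and 3.3e-07 over 10 tests). The right arm was above the arms of I to IV (Fisher's exact test, adjusted p = 0.00077) and missed the threshold against the centre (0.12). The shares of peaks in replicate 2 alone did not pass the test in any of the 5 comparisons (Fisher's exact test, adjusted p = 0.68 to 1).

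**Figure D5:**
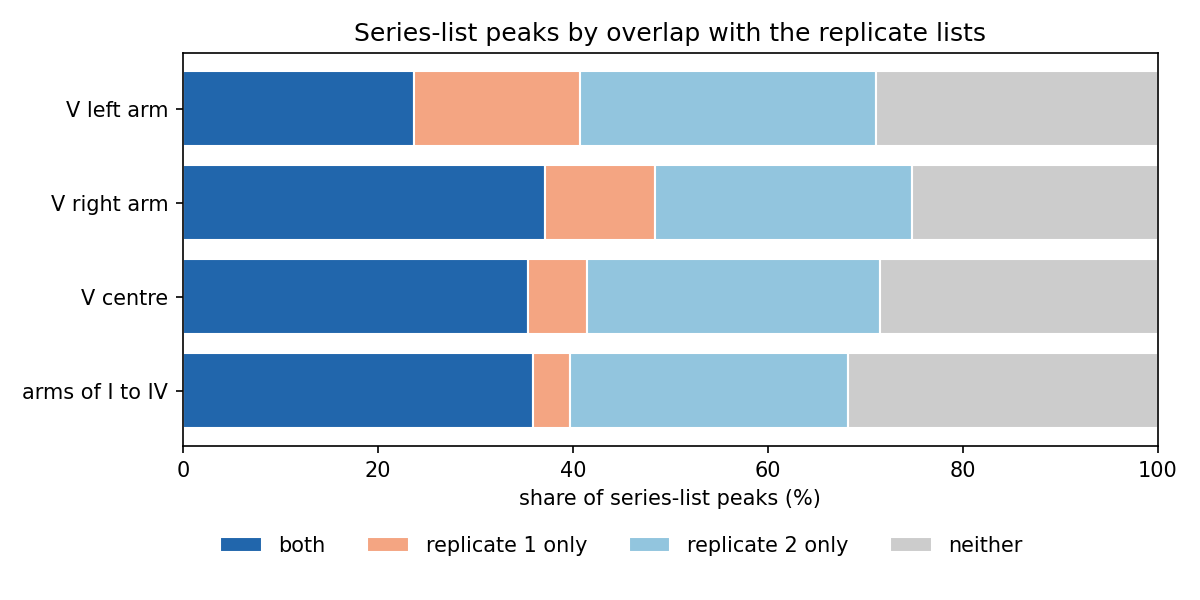
Share of series-list peaks (horizontal axis, percent) that overlapped a peak of both replicates, of replicate 1 only, of replicate 2 only or of neither, for the arms and centre of V and the arms of I to IV. The segment for replicate 1 only takes up 17.0% on the left arm and 11.3% on the right arm, against 6.11% in the centre and 3.77% in the arms of I to IV.

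Some of these peaks shared a replicate 1 peak. The 23 left-arm peaks fell in 15 replicate 1 peaks and the 18 right-arm peaks in 14. The 24 centre peaks fell in 18 and the 48 of the arms of I to IV in 45. On the left arm 8 of the 23 lay in replicate 1 peaks over 3 kb wide. A replicate 1 peak at V:3434527-3441172 (6646 bp, score 161.36) held 5 of them, and another at V:5073223-5076866 (3644 bp, score 264.47) held 3. No right-arm peak found in replicate 1 alone lay in such a wide peak. However, 4 of the 18 lay in 1 replicate 1 peak below that width, V:16449775-16451755 (1981 bp, score 191.02). When series-list peaks inside replicate 1 peaks over 3 kb were left out, the left-arm excess shrank from 13.3 to 8.27 percentage points against the arms of I to IV and from 10.9 to 7.23 against the centre (Fisher's exact test, adjusted p = 0.00095 and 0.017). The right-arm excess was then 7.90 points against the arms of I to IV and 6.86 against the centre (Fisher's exact test, adjusted p = 0.00083 and 0.017). The 4 right-arm peaks that share 1 replicate 1 peak stayed in. These tests count peaks that share a replicate 1 peak as separate units, so their p values may be too small. With wider arms the left arm was also above the right arm, by 8.32 points (Fisher's exact test, adjusted p = 0.027).

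The replicate 1 peaks themselves were also counted, which describes largely the same peaks and is no independent support. Of all nuclear replicate 1 peaks 85.2% overlapped a replicate 2 peak. On the left arm it was 32 of 52 (61.5%, 48.0 to 73.5) and on the right arm 58 of 77 (75.3%, 64.6 to 83.6), against 143 of 168 in the centre (85.1%) and 455 of 518 in the arms of I to IV (87.8%). In Fisher's exact test over 10 comparisons, also chosen after seeing the data, the left arm was below the centre (adjusted p = 0.0031) and below the arms of I to IV (6.1e-05). The right arm was below the arms of I to IV (Fisher's exact test, adjusted p = 0.023) and missed the threshold against the centre (0.18). These are weak peaks for the most part, as in the other regions. The left-arm replicate 1 peaks not found in replicate 2 had a median score of 100.47, and those found in it 310.2. The same medians were 81.08 and 298.4 on the right arm, 75.92 and 367.86 in the centre, and 78.17 and 285.68 in the arms of I to IV. Among peaks not found in replicate 2 the left-arm median was thus the highest, which was not tested. Within the stronger 50% of replicate 1 none of the calls held (Fisher's exact test, adjusted p = 0.35 to 0.85), and with wider arms that of the right arm against the other arms was lost (0.28) and the left arm lay below the right arm, the difference being -17.5 points (0.032). The read depth, the duplicate filter and the control behind each replicate list are unknown, and their part in this difference was not tested.

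In the other direction 49.6% of all nuclear replicate 2 peaks overlapped a replicate 1 peak. It was 32 of 72 on the left arm (44.4%, 33.5 to 55.9), 55 of 101 on the right arm (54.5%, 44.8 to 63.8), 54.0% in the centre and 52.7% in the arms of I to IV. None of these comparisons passed Fisher's exact test (adjusted p = 0.27 to 1), but with wider arms the left arm lay below the right arm, the difference being -15.4 points (adjusted p = 0.041).

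The strongest peaks that only 1 replicate showed were moderate in rank. In replicate 1 they were V:17384105-17385364 (1260 bp, score 758.92) and V:18727572-18728649 (1078 bp, 566.32) on the right arm, and V:1637871-1639104 (1234 bp, 645.7) on the left arm. The first of them belonged to a group. Within 8.81 kb, from 17384105 to 17392918, replicate 1 had 8 peaks, of which 7, with scores of 67.59 to 758.92, had no replicate 2 counterpart. Replicate 2 had 1 peak there, with a score of 51.08, and the series list 5, with scores of 2.51 to 15.48. This group was singled out after its values were seen.

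In replicate 2 the strongest peak without a replicate 1 counterpart was V:2302098-2305557 on the left arm (3460 bp, score 810.53), which ranked 653 of 2660. It was followed on that arm by V:8400-9424 (385.49), near the chromosome end, and V:4753886-4754756 (355.8). On the right arm V:16355688-16356495 (445.96), V:20778038-20778791 (328.23) and V:20845246-20846098 (287.91) were strongest. All 6 were also in the series list. Of the 52 left-arm replicate 1 peaks 47 were in the series list (90.4%), and of the 77 on the right arm 71 (92.2%). The shares were 95.8% in the centre and 96.1% in the arms of I to IV. For replicate 2 the counts were 68 of 72 (94.4%) and 93 of 101 (92.1%). There the centre had 96.6% and the arms of I to IV 93.1%. These shares were not tested.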

How the data were processed

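The members and lists of comparisons were chosen with earlier results of these data known. The submitters' processing notes name BWA, a read aligner, and the ce10 build, without their roles. The authors called the replicate lists with MACS and the list of the whole series with MACS v2, and placed peaks on WormBase WS220, per the file headers. Settings, control and the making of the whole-series list are not stated there, and that list was treated as pooled over the ChIP samples. Each peak has a score deposited by the authors on a scale that is not stated. The score was used as a rank within its list. The read depth is unknown, no input values were used, and intervals cover the counting of peaks only.

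Chromosome lengths were taken as the end of the last peak in any list, and the arms of I to IV as 25% of that length at each end (33.3% for wider arms). Peaks overlap when they share at least 1 bp. Mitochondrial peaks were left out. Densities were compared with exact binomial tests and shares with Fisher's exact tests, two-sided, with Benjamini-Hochberg adjustment and a threshold of 0.05. Named by rule were, per arm, the 10 strongest peaks found in both replicates, the 5 widest, the 5 longest gaps and the 3 strongest peaks of each replicate absent from the other. The exact binomial test was checked on simulated independent counts, which cannot show the effect of dependence between neighbouring peaks. Fisher's exact test was not checked on simulated counts. Python 3.11.15, numpy 2.4.6, pandas 2.3.3, scipy 1.17.1 and matplotlib 3.10.9 were used.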

Additional observations from a re-analysis of the deposited data

How the results depend on the processing

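The density of the left arm against the centre and against the arms of I to IV kept its direction and its side of the threshold in all alternatives run, in all 3 lists. For the right arm against the centre in the series list the ratio was 0.81 with the stronger 50% of peaks, 0.84 with peaks closer than 500 bp merged, 0.96 with wider arms and 0.85 among peaks found in both replicates, none past the threshold. Against the arms of I to IV it lost the call in the series list among peaks found in both replicates (0.76), and in replicate 2 with the stronger 50% (0.80) and wider arms (0.84). With wider arms it turned to 1.10 against the centre and 1.02 against the other arms in replicate 1, and to 1.01 against the centre in replicate 2. Left against right became a call in the series list with the stronger 50% (0.64), wider arms (0.80) and peaks found in both replicates (0.54). It was lost in replicate 1 with the stronger 50% (0.57) and in both replicates with merging (0.73 and 0.75).

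Of the overlap with both replicates, the left arm against the arms of I to IV lost its call at an overlap of 50% of the shorter peak (-11.9 percentage points), with centres within 100 bp (-5.39) and in the stronger 50% (-9.54), and ranged from -10.4 to 1.04 points with a replicate left out. The right arm ranged from -1.87 to 6.95 points against the centre and from -0.94 to 8.73 against the other arms with a replicate left out, and turned to -2.92 and -2.00 in the stronger 50%. Left against right became a call with wider arms (-16.2). For the overlap with at least 1 replicate, the left arm against the other arms turned to -4.35 with centres within 100 bp and ranged from -10.4 to 1.04 with a replicate left out. The left arm against the centre turned to 0.47 with wider arms, and moved from -0.39 to -11.3 without replicate 1 (Fisher's exact test, adjusted p = 0.058) and to -0.74 without replicate 2. The right arm against the centre turned to -0.17 in the stronger 50%. With a replicate left out the right arm ranged from -1.87 to 6.95 against the centre and from -0.94 to 8.73 against the other arms. Values with a replicate left out are the same for both overlap measures, since each is then overlap with the remaining replicate alone.

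For the share of strong peaks, the strongest 10% gave -4.51, -3.19 and -0.99 points for the left arm against the centre, the other arms and the right arm, all calls lost, and -2.20 for the right arm against the other arms. The strongest 50% gave 0.41 for the right arm against the centre and -12.8 for left against right, a lost call. Wider arms gave 3.56 for the right arm against the centre. Among peaks found in both replicates the values were 6.29, 3.12 and 11.4 for the left arm against the centre, the other arms and the right arm, and -8.32 for the right arm against the other arms, all reversed. The share of wide peaks turned for the right arm against the centre in the stronger 50% (1.19) and with wider arms (3.80). With gaps of at least 50 kb the shares of length were 70.9% on the left arm, 72.7% on the right arm, 58.7% in the centre and 49.0% in the arms of I to IV.

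Among comparisons chosen after seeing the data, peaks in replicate 2 alone turned for the left arm against the centre at an overlap of 50% of the shorter peak (-0.40) and with wider arms (-0.26). Replicate 2 peaks found in replicate 1 turned for the right arm in the stronger 50%, to -3.46 against the centre and -2.57 against the other arms. With wider arms, left against right became a call for peaks in replicate 1 alone (8.32 points), replicate 1 peaks found in replicate 2 (-17.5) and replicate 2 peaks found in replicate 1 (-15.4). The cause of these changes was not tested.

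Pairing the regions within each replicate list, as a replicate block added after seeing the data, left the mean log2 density ratios as they are (-0.71 for the left arm against the centre, SD 0.019, n = 2), with exact permutation p = 0.5 for each of the 5 comparisons, the smallest that 2 pairs can give. Between ChIP and input no pairing was made, since no input values were used. The lists hold called peaks without read depth, and what part depth, control or caller settings have in a peak's absence from a list was not tested.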
